A study of Homo sapiens with 6 samples.

Results

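The enzymes that make serine from glucose and pass its carbon to folate were followed by the RNA of 9 genes, all 9 of which have a row in every library. PHGDH, PSAT1 and PSPH carry out serine synthesis, SHMT1 and MTHFD1 work in the cytosol, SHMT2, MTHFD2 and MTHFD1L in mitochondria, and TYMS makes thymidylate. They were chosen by name, by matching each name against the comma-separated gene names of a row. Of 47597 gene symbols kept in the joined tables, 10670 were tested, and 8 of the 9 enzymes are among them. PSPH was not tested, because in LY19Y646F replicate 1 its row also names NUPR1L, another protein-coding gene.

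The RNA came from a pair of immortalized human lines of lymphoma B cells kept in culture. LY19WT carries the label EZH2-wild type. LY19Y646F is labelled as expressing EZH2-Y646F constitutively from a CMV promoter, a strong viral promoter that is not the promoter of EZH2 itself. EZH2 is the enzyme of Polycomb repressive complex that methylates lysine 27 of histone H3, and the substitution is a recurrent lymphoma mutation. Cells of both lines were untreated, at passages 10 to 15, and grew in RPMI with fetal bovine serum, a medium that supplies serine, glycine and folic acid. Each line has 3 libraries described as biological replicates, and no source used here says that they were grown apart. A p-value below therefore reflects how much these libraries vary, which may be technical. Whether a line is 1 clone is not given in the sources used here.

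Serine is built from a glycolytic intermediate in 3 steps. SHMT enzymes then split it into glycine and a one-carbon unit on tetrahydrofolate, in mitochondria (SHMT2) or in the cytosol (SHMT1). The mitochondrial enzymes MTHFD2 and MTHFD1L oxidise that unit to formate, which leaves for the cytosol, where MTHFD1 loads it back onto folate for purine and thymidylate synthesis. Proliferating lymphocytes draw on this route for nucleotides, and MTHFD2 and SHMT2 are known for their high levels in many tumours.

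Facts of the libraries as a whole bear on every comparison. Absolute read depth is unknown, since the tables hold FPKM (fragments scaled to transcript length and to the mapped total) and no counts, so no counting limit is given. Summed FPKM lay between 806102 and 1020940, and the 10 highest rows held 27.5% of the sum in LY19WT replicate 3 against 5.71% to 9.38% elsewhere. The median ratio of a library to the mean of all libraries, over tested genes, ran from 0.983 to 1.016. It was 1.004 in LY19WT replicate 3. EZH2 measured 60.6, 76.5 and 74.7 FPKM in LY19WT, against 70.2, 80.4 and 93.5 FPKM in LY19Y646F, and the tables do not separate mutant from wild-type transcripts. B cell markers were present in both lines, with summed FPKM of 269 to 427 in LY19WT and 560.0 to 900 in LY19Y646F, but the rows naming MS4A1 (CD20) held at most 0.140 FPKM in LY19WT and 83.1 to 118 FPKM in LY19Y646F. Rows naming the kappa light chain constant gene IGKC held 39.4 to 54.3 and 4283 to 4908 FPKM. What belongs to the EZH2 allele and what belongs to the line cannot be told apart. All 4 epithelial, all 3 fibroblast and all 3 erythroid markers stayed under 0.5 FPKM in every library. Of 5 T cell markers 4 stayed under it, with CD3E at 0.736 to 1.06 FPKM in LY19Y646F. Of 5 myeloid markers 3 did, with LYZ at 10.1 to 13.4 FPKM in LY19WT and 0.0916 to 0.263 FPKM in LY19Y646F. CSF1R, the other myeloid marker above it, held 0.397 to 0.993 FPKM in LY19WT and 0.0521 to 0.129 FPKM in LY19Y646F.

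The 250 bases before the annotated transcript start are shown for the 3 enzymes whose RNA fell and for MTHFD2, whose libraries lay apart in the other direction. The sequences are those of RefSeq on GRCh38.p14, matched by symbol, which found 7 of the 9 genes. They are the forward strand of chr1:119711684-119711933, chr14:64388103-64388352, chr18:657403-657652 and chr2:74198365-74198614. Capitals mark matches, on either strand, to the CCAAT box (CCAAT, bound by NF-Y), the E-box (CACGTG, bound by MYC and related factors), an ATF4 element (TGATGNAA) and 2 forms of an E2F site (TTTCCCGC and TTTGGCGC).
PHGDH: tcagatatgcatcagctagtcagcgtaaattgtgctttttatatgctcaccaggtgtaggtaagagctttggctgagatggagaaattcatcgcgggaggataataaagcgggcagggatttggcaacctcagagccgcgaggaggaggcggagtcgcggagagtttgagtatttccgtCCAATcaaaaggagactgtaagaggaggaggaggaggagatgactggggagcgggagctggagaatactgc
MTHFD1: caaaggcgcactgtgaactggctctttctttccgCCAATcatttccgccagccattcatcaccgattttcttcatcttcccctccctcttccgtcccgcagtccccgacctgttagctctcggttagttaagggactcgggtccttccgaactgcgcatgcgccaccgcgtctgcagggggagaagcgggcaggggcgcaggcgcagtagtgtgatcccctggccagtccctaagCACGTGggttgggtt
TYMS: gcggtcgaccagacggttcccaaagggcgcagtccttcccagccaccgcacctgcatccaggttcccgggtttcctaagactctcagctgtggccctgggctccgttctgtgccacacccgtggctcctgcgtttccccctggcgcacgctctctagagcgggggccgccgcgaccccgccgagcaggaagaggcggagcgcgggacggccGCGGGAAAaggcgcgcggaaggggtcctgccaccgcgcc
MTHFD2: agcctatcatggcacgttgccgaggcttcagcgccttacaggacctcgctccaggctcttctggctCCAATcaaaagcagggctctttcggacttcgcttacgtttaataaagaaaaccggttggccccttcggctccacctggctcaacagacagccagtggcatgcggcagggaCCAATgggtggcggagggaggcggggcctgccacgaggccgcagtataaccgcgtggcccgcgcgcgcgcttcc
In the PHGDH window the only match was a CCAAT box whose first base lies 71 bases before the start. The MTHFD1 window held a CCAAT box at 216 and an E-box at 15 bases before the start, and the MTHFD2 window held CCAAT boxes at 184 and 74 bases. The TYMS window differed from the other 3 in holding no CCAAT box and an E2F match on the reverse strand, 39 bases before the start. PSAT1 had 3 CCAAT boxes and SHMT1 had 2. For MTHFD1L, with 4 annotated starts, 2 of the overlapping windows held the same ATF4 element, which reads TGATGCAA. It lies 129 and 90 bases before their starts, beside an E-box and a CCAAT box that both windows also share. Another window that overlaps both held the same CCAAT box, 40 bases before its start, but neither the ATF4 element nor the E-box. Among all 35116 windows of this length 32.0% held a CCAAT box, 6.34% an E-box, 3.14% the ATF4 element, and 1.39% the first and 0.5496% the second E2F form. No match overlapped another. These matches describe the letters only.

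The comparison of the lines asked which enzymes differed in RNA level, and 3 of the 8 tested enzymes were lower in LY19Y646F and 0 higher. PHGDH, MTHFD1 and TYMS fell 1.82- to 2.63-fold. The calls come from limma on log2(FPKM + 1) with Benjamini-Hochberg adjustment over all 10670 tested genes at an adjusted p under 0.05. That test called 33.3% of all tested genes, 16.7% as higher and 16.6% as lower, so calls are common among genes at large. The libraries of the lines did not overlap for 5 of the 9 enzymes (PHGDH, PSAT1, MTHFD1, MTHFD2 and TYMS), beside 48.6% of tested genes. The median difference was -0.63 on the log2 scale for the 8 enzymes and -0.03 for all tested genes. In bulk RNA, fewer cells of a type and less RNA per cell cannot be told apart.

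**Figure D1:**
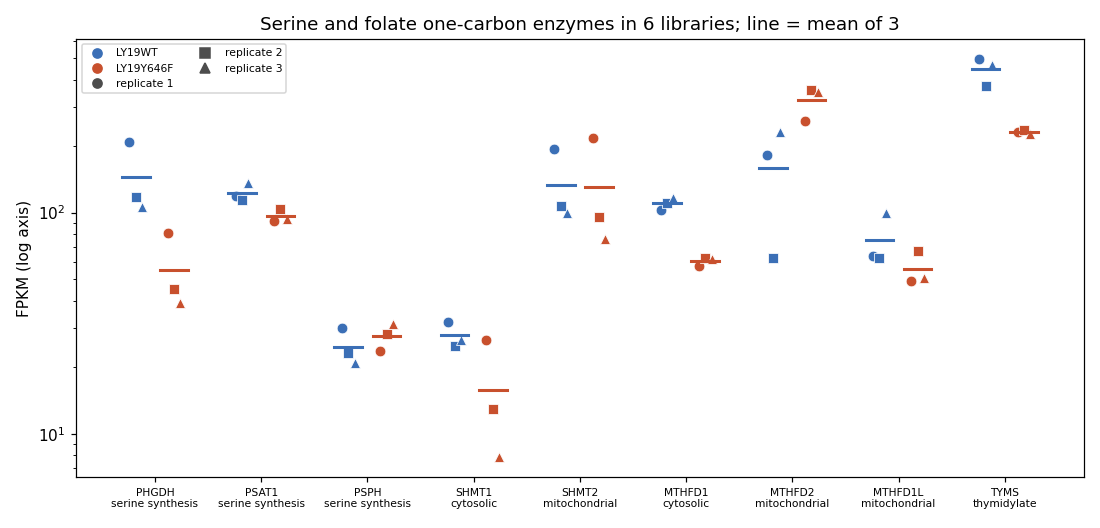
FPKM of the 9 enzymes on a log axis in 3 LY19WT libraries (blue) and 3 LY19Y646F libraries (red), with the replicate number as the symbol and a bar at the mean of each line. PHGDH, PSAT1, MTHFD1 and TYMS are lower in each LY19Y646F library than in any LY19WT library, MTHFD2 is higher, and the other 4 overlap.

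In serine synthesis the first enzyme fell and the other two did not pass or were not tested. PHGDH, the dehydrogenase that commits a glycolytic intermediate to serine, measured 209.6, 118 and 106 FPKM in LY19WT replicates 1 to 3, against 80.6, 45.2 and 38.9 FPKM for LY19Y646F. Each LY19Y646F library lay below every LY19WT library. The means of 145 ± 56.6 and 54.9 ± 22.5 FPKM (SD, n = 3 each) are 2.63-fold apart, with a log2 difference of -1.39 (SE 0.38) and a limma adjusted p of 0.043. Within a line the highest PHGDH library stood 1.97-fold (LY19WT) and 2.07-fold (LY19Y646F) above the lowest, in both cases replicate 1. By replicate number LY19WT exceeded LY19Y646F 2.60-, 2.61- and 2.73-fold, so the ratio between the lines varied far less than the levels. With the replicate number as a block the SE was 0.056 and the limma adjusted p 0.0029. The unblocked PHGDH call was lost when any library other than LY19Y646F replicate 1 was left out (adjusted p 0.067 to 0.13), without a filter (0.070) and with merged rows counted for every gene (0.057). The PHGDH row covers hg19 chromosome 1, 120202421 to 120286838, in all libraries.

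PSAT1, the transaminase of the middle step, measured 118, 114 and 136 FPKM in LY19WT, against 91.5, 104 and 93.7 FPKM in LY19Y646F (hg19 chromosome 9, 80912059 to 80945009). The lines did not overlap, but the means of 123 ± 11.9 and 96.4 ± 6.72 FPKM (SD, n = 3 each) gave a log2 difference of -0.34 (95% interval -0.61 to -0.07, not adjusted for the number of genes) with a limma adjusted p of 0.061. Scaling the libraries by median ratios or by quantiles brought that adjusted p to 0.040 and 0.025, the 2 of 17 alternatives that called PSAT1. The replicate block gave 0.096, and leaving out 1 library gave 0.087 to 0.16. PSPH, the phosphatase that releases serine, measured 30.1, 23.3 and 20.96 FPKM in LY19WT, against 23.6, 28.4 and 31.4 FPKM in LY19Y646F, and the ranges overlapped. Counting merged rows for every gene they name, PSPH had a log2 difference of 0.16 and a limma adjusted p of 0.56. The row shared with NUPR1L reaches to base 56184093 of hg19 chromosome 7, while NUPR1L has a row of its own, listed at 0, in the other 5 libraries. PSPHP1, a pseudogene copy of PSPH, held 6.05 to 7.89 FPKM in LY19WT and 14.3 to 16.6 FPKM in LY19Y646F. How reads that match both copies were assigned is not given in the sources used here, and its part in the PSPH level was not tested.

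Of the cytosolic enzymes MTHFD1 fell, and its 3 LY19WT libraries had the smallest ratio of highest to lowest among the 9 enzymes. MTHFD1, whose 3 activities interconvert the folate-bound units and join formate to folate, measured 103, 111 and 116 FPKM in LY19WT, against 57.2, 62.2 and 61.9 FPKM in LY19Y646F. The lowest LY19WT library stood well above the highest LY19Y646F library. Means were 110.1 ± 6.72 and 60.5 ± 2.82 FPKM (SD, n = 3 each), a 1.82-fold difference, with a log2 difference of -0.85 (SE 0.089) and a limma adjusted p of 0.0014. All 16 alternatives that tested MTHFD1 called it lower, with log2 differences from -0.995 to -0.81. In LY19WT replicate 3 the MTHFD1 row also names the non-coding CTD-2555O16.3 and ends at 64930175 in place of 64926722 of hg19 chromosome 14. Its value of 116 FPKM was the highest of all libraries, and the part of the merged row in it was not tested. The X-linked pseudogene MTHFD1P1 held 0.989 to 1.60 FPKM in LY19WT and 0.611 to 0.667 FPKM in LY19Y646F, small beside MTHFD1.

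SHMT1, the cytosolic serine hydroxymethyltransferase, measured 32.1, 24.95 and 26.6 FPKM in LY19WT, against 26.5, 12.9 and 7.84 FPKM in LY19Y646F. LY19Y646F replicate 1 sat among the LY19WT libraries, and replicates 2 and 3 below them. The log2 difference of -0.94 (95% interval -2.02 to 0.15) had a limma adjusted p of 0.16. Without LY19Y646F replicate 1 it was -1.37 with an adjusted p of 0.017, and without replicate 1 of both lines -1.27 with 0.043. Those settings called 37.7% and 43.2% of all tested genes, beside 33.3% with all libraries. Without LY19Y646F replicate 3 the SHMT1 difference was -0.56 with an adjusted p of 0.32, so single libraries moved SHMT1 in both directions.

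None of the 3 mitochondrial enzymes passed the test, and differences between them were not tested. MTHFD2, the mitochondrial dehydrogenase and cyclohydrolase, measured 183, 62.1 and 230.4 FPKM in LY19WT, against 259, 358 and 352 FPKM in LY19Y646F (hg19 chromosome 2, 74425689 to 74444692). Every LY19Y646F library was above every LY19WT library, and LY19WT replicate 2 stood 3.71-fold below the highest of its line. The means of 158 ± 86.7 and 323 ± 55.6 FPKM (SD, n = 3 each) are 2.04-fold apart. The log2 difference for MTHFD2 of 1.21 (95% interval -0.10 to 2.52) had a limma adjusted p of 0.14. Without LY19WT replicate 2 the difference was 0.64 with an adjusted p of 0.10, and with library weights 1.84 with 0.028.

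SHMT2, the mitochondrial serine hydroxymethyltransferase, measured 194, 107 and 100.1 FPKM in LY19WT, against 218, 95.7 and 76.2 FPKM in LY19Y646F (hg19 chromosome 12, 57623110 to 57628718). Replicate 1 stood 1.94-fold (LY19WT) and 2.86-fold (LY19Y646F) above the lowest library of its line, and the lines overlapped. The log2 difference for SHMT2 was -0.13 (95% interval -1.34 to 1.08, limma adjusted p 0.87), an interval too wide to show that the lines are alike. Its sign turned without LY19WT replicate 1 (0.17), LY19Y646F replicate 2 (0.01) or LY19Y646F replicate 3 (0.18). MTHFD1L, the mitochondrial synthetase that releases formate, measured 63.8, 62.6 and 99.8 FPKM in LY19WT, against 48.9, 67.4 and 50.8 FPKM in LY19Y646F. LY19WT replicate 3 was the highest and the ranges overlapped. The log2 difference of -0.41 (95% interval -1.01 to 0.18) had a limma adjusted p of 0.25. Without LY19WT replicate 3 it was -0.19 with an adjusted p of 0.49, and with library weights -0.17 with 0.52. The MTHFD1L row is merged with a non-coding name in all 6 libraries, RP1-292B18.1 in 4 of them and another one in LY19Y646F replicates 2 and 3, over the same bases (hg19 chromosome 6, 151186685 to 151423023).

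TYMS, the thymidylate synthase that spends a folate-bound unit and is a target of fluorouracil, fell 1.93-fold. Its LY19WT libraries held 496, 375 and 463 FPKM, against 231, 235 and 227 FPKM for LY19Y646F (hg19 chromosome 18, 657604 to 673578). The LY19Y646F libraries were within 1.04-fold of each other and all below LY19WT. The log2 difference of -0.93 (SE 0.12) had a limma adjusted p of 0.0032, and all 17 alternatives kept the call. ENOSF1, which overlaps the end of TYMS on the opposite strand, was listed at 0 in each of the 6 library tables, whereas the authors' deposited table gives it 3.49 FPKM in LY19WT and 12.0 FPKM in LY19Y646F. The kit marks strand per the labels, but whether strand was used in counting is not given in the sources used here. TYMS is also a gene of dividing cells, so markers of proliferation are given beside it. Of 8 tested proliferation markers 2 were higher and 2 lower in LY19Y646F. PCNA measured 307 ± 28.0 and 600.1 ± 45.2 FPKM (SD, n = 3 each) and MKI67 96.2 ± 12.3 and 58.0 ± 12.1 FPKM, and the summed level of the list was 1368 to 1433 and 1685 to 1854 FPKM. The part of proliferation in the TYMS difference was not tested.

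Since FPKM is per transcript length, the levels of the enzymes can be ordered within a line. In LY19WT the order of mean FPKM was TYMS (445), MTHFD2 (158), PHGDH (145), SHMT2 (134), PSAT1 (123), MTHFD1 (110.1), MTHFD1L (75.4), SHMT1 (27.9) and PSPH (24.8). The ranges of neighbours overlapped from MTHFD2 through MTHFD1 and again for SHMT1 and PSPH, while TYMS stood above and MTHFD1L apart. In LY19Y646F, MTHFD2 led with 323 FPKM, above TYMS with 231 FPKM and SHMT2 with 130.0 FPKM, and no range of these overlapped another. SHMT2 overlapped PSAT1 (96.4), which stood above MTHFD1. MTHFD1 (60.5), MTHFD1L (55.7) and PHGDH (54.9) overlapped their neighbours in that order, as did PSPH (27.8) and SHMT1 (15.7). PHGDH thus went from rank 3 to rank 7. Even SHMT1, the least abundant on average over the 6 libraries, was above 70.9% of tested genes, and TYMS was above 97.9%.

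Setting mitochondrial against cytosolic enzymes within each library, 2 of the 3 ratios examined were higher in LY19Y646F without overlap between the lines. Among single tested genes 48.6% did not overlap either. No mitochondrial enzyme was called, and SHMT2 (log2 difference -0.13) and MTHFD1L (-0.41) were lower on average. MTHFD1, which was called lower, is the denominator of both MTHFD ratios. SHMT2 exceeded SHMT1 6.05-, 4.29- and 3.76-fold in LY19WT and 8.23-, 7.41- and 9.73-fold in LY19Y646F. No library of a line overlapped with the other line, although neither gene on its own passed the test. The mean log2 ratio was 0.87 higher in LY19Y646F, where it was 3.07 ± 0.20 (SD, n = 3), a 1.83-fold difference. The exact two-sided permutation p was 0.10, the smallest that 3 libraries against 3 can give, and 0.15 adjusted over the 3 ratios. MTHFD2 over MTHFD1 was 1.77, 0.559 and 1.98 in LY19WT and 4.53, 5.76 and 5.69 in LY19Y646F, again without overlap. Its log2 mean was 0.33 ± 1.01 in LY19WT and 2.40 ± 0.19 in LY19Y646F, a 4.23-fold difference (exact permutation p = 0.10, adjusted 0.15), and without LY19WT replicate 2 the log2 difference was 1.498 in place of 2.08. MTHFD1L over MTHFD1 was 0.620, 0.563 and 0.858 in LY19WT and 0.856, 1.08 and 0.820 in LY19Y646F, which overlap (exact permutation p = 0.30, adjusted 0.30). Since none of these tests can pass 0.05 at this size, the differences are reported as values.

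**Figure D2:**
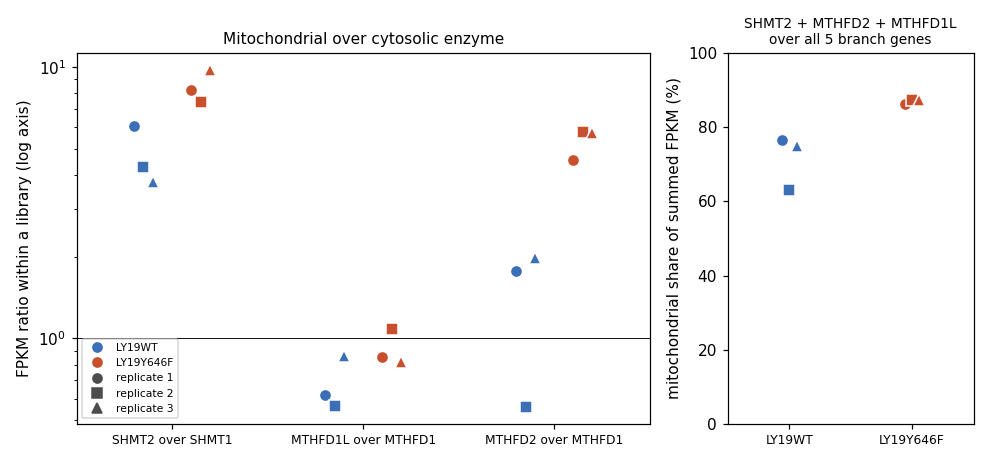
Left, the FPKM ratio of a mitochondrial to a cytosolic enzyme within each library on a log axis, with 1 marked by a line. Right, the share of SHMT2, MTHFD2 and MTHFD1L in the summed FPKM of these 3 with SHMT1 and MTHFD1, 63.0% to 76.5% in LY19WT and 86.3% to 87.4% in LY19Y646F.

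Summed over the branch, the mitochondrial enzymes held 441, 232 and 430.4 FPKM in LY19WT, against 526, 521 and 479.5 FPKM in LY19Y646F. The cytosolic pair held 135, 136 and 143 FPKM against 83.7, 75.2 and 69.8 FPKM. Neither sum overlapped between the lines. In LY19WT the cytosolic sum varied less between libraries, with an SD of 4.27 FPKM against 118 FPKM. In LY19Y646F the SD was 7.02 FPKM on a cytosolic mean of 76.2 FPKM, and 25.7 FPKM on a mitochondrial mean of 509 FPKM. Relative to its level the cytosolic sum thus varied more in that line. The mitochondrial share of the total averaged 71.5 ± 7.43% in LY19WT and 87.0 ± 0.62% in LY19Y646F (SD, n = 3 each). MTHFD2 alone made up 41.4%, 26.8% and 53.5% of the mitochondrial sum in LY19WT and 49.3%, 68.7% and 73.5% in LY19Y646F. The 3 serine synthesis genes summed to 358, 255 and 263 FPKM in LY19WT, against 196, 178 and 164 FPKM in LY19Y646F, without overlap. For the 9 genes as a whole the sums overlapped, at 998 to 1431 FPKM in LY19WT and 940.3 to 1036 FPKM in LY19Y646F. No test was made on these sums.

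Cufflinks gives an interval for each single library, which does not cover the variation between samples. Over the 54 values of the 9 genes the 95% interval reached 2.40% to 9.41% above the value, with a median of 4.45%, and all 54 rows had an OK status. PHGDH, SHMT1 and SHMT2 were highest in replicate 1 of both lines, which was so for 23.4% of tested genes. MTHFD1, MTHFD2, PSAT1, TYMS, MTHFD1L and PSPH did not share that order. MYC, a factor known to act on these genes, measured 151, 101 and 103 FPKM in LY19WT, against 188, 22.7 and 32.2 FPKM in LY19Y646F (chosen for mention after its values were seen). Replicate 1 was the highest MYC library in both lines, as for SHMT2, and the part of MYC in the SHMT2 levels was not tested. MYC did not pass between the lines (limma adjusted p 0.35), and without replicate 1 of both lines it had a log2 difference of -1.88 and an adjusted p of 0.011. That setting called 43.2% of all tested genes. ATF4, the amino acid stress factor that activates PHGDH, PSAT1 and MTHFD2, measured 287 ± 1.86 and 444 ± 13.2 FPKM (SD, n = 3 each) and rose by a log2 of 0.63 (limma adjusted p 0.0013).

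**Figure D3:**
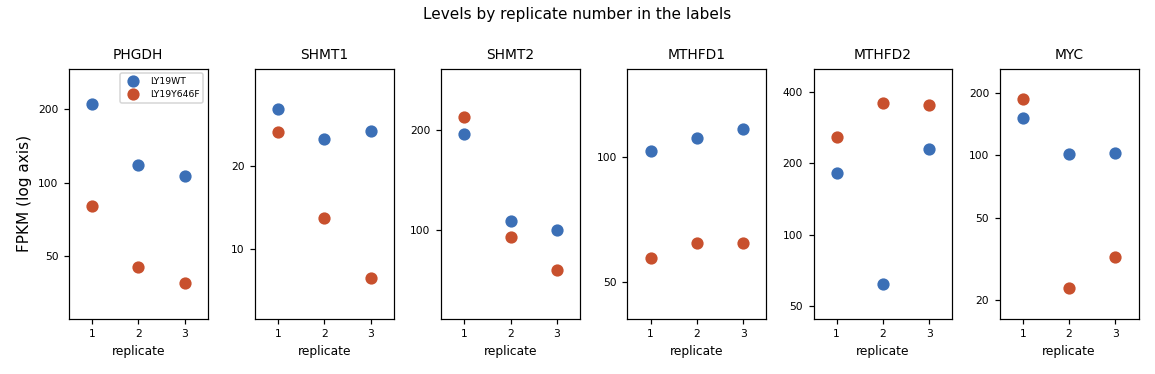
FPKM on log axes by the replicate number of the labels for 5 of the enzymes and MYC, LY19WT in blue and LY19Y646F in red. PHGDH, SHMT1, SHMT2 and MYC are highest in replicate 1 of both lines, MTHFD1 is nearly level within a line, and MTHFD2 is low in LY19WT replicate 2.

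The 9 genes lie in a wider pathway, of which 57 more genes were examined. Of these 37 were tested, 9 shared a row or had a failed one, and 11 were below 0.5 FPKM. Limma called 9 higher and 5 lower in LY19Y646F, 14 of 37, beside the 33.3% of all tested genes, and their median log2 difference was 0.09.

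Mitochondrial folate genes outside the 9 enzymes were higher for 3 and lower for 1 of 5 tested. SLC25A32, which carries folate into mitochondria, measured 22.1, 18.2 and 24.1 FPKM in LY19WT, against 57.4, 55.8 and 48.9 FPKM in LY19Y646F. It rose 2.52-fold (log2 SE 0.14, limma adjusted p 0.0015) with no overlap. The SLC25A32 row is also merged with a non-coding name in some library, and the part of this in the level was not tested. MTHFD2L, the paralog of MTHFD2, measured 7.63, 7.71 and 7.88 FPKM against 17.0, 16.9 and 10.4 FPKM, and rose by 0.82 (limma adjusted p 0.034). MTHFD2L has 16.6 and 21.7 FPKM in the authors' deposited table, a log2 fold change of only 0.39. SFXN1, the mitochondrial serine carrier, rose from 45.9 ± 2.43 to 60.5 ± 3.43 FPKM (SD, n = 3 each, limma adjusted p 0.025). With the replicate number as a block the MTHFD2L adjusted p was 0.058, and leaving out any library other than LY19Y646F replicate 3 gave 0.075 to 0.11. The SFXN1 call was lost without any library other than LY19Y646F replicate 1 (adjusted p 0.059 to 0.092) and with quantile scaling (0.092). SARDH, the mitochondrial sarcosine dehydrogenase, was low throughout and fell from 1.17 ± 0.37 to 0.0347 ± 0.0319 FPKM (limma adjusted p 0.0063).

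Glycine cleavage, which splits glycine in mitochondria into carbon dioxide, ammonia and a folate-bound unit, was called in both of its tested genes, in opposite directions. GLDC, the decarboxylase of the system, measured 34.8, 44.0 and 40.4 FPKM in LY19WT, against 0.106, 0.130 and 0.171 FPKM in LY19Y646F. It fell by 5.16 on the log2(FPKM + 1) scale (SE 0.13, limma adjusted p 2.1e-05), a larger change than in any of the 9 enzymes. The authors' deposited table gives GLDC 47.5 and 0.142 FPKM. DLD, a subunit shared with other dehydrogenases, measured 67.0, 76.1 and 78.2 FPKM against 105, 133 and 136 FPKM and rose by 0.74 (limma adjusted p 0.011). The DLD row is merged with a non-coding name in some library, and the part of this in the level was not tested. AMT and GCSH, the other subunits, shared rows and were not tested. Rows naming AMT held 2.85 to 6.39 FPKM in LY19WT and 0.218 to 0.347 FPKM in LY19Y646F, and rows naming GCSH 27.0 to 27.7 and 48.8 to 61.8 FPKM.

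In the methionine cycle, which takes methyl groups from folate, 2 of 8 tested genes were lower and 0 higher. MTR, the methionine synthase, measured 19.3, 21.7 and 21.5 FPKM in LY19WT, against 9.60, 11.0 and 11.8 FPKM in LY19Y646F and fell by 0.89 on the log2 scale (limma adjusted p 0.0035). MAT2B, the regulatory subunit of S-adenosylmethionine synthesis, fell from 65.3 ± 3.53 to 44.5 ± 3.34 FPKM (SD, n = 3 each, limma adjusted p 0.010). Its catalytic partner MAT2A measured 324 ± 66.1 and 306 ± 41.5 FPKM (log2 difference -0.07, 95% interval -0.555 to 0.42) and did not pass. In transsulfuration, CBS, which joins serine to homocysteine, measured 0.0487, 0 and 0.0231 FPKM in LY19WT, against 44.7, 9.16 and 9.03 FPKM in LY19Y646F. CBS rose by 4.03 on the log2(FPKM + 1) scale (SE 0.64, limma adjusted p 0.0064), with LY19Y646F replicate 1 the highest library. CTH, the next enzyme, measured 4.22 ± 0.25 and 4.38 ± 0.27 FPKM (log2 difference 0.05, 95% interval -0.24 to 0.33), and was chosen for mention after its values were seen.

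Genes that use or spare folate-bound units for nucleotides were examined next. In purine synthesis PPAT, the first committed step, rose from 33.1 ± 2.14 to 54.2 ± 0.67 FPKM (SD, n = 3 each, limma adjusted p 0.0028), the 1 call among 4 tested genes. ATIC, which adds a folate-bound formyl group, measured 256 ± 31.9 and 285 ± 9.93 FPKM and did not pass. Among 8 tested genes of thymidine salvage and deoxynucleotide supply 1 was higher and 1 lower. DCTD, the deaminase that supplies the substrate of TYMS, measured 53.8, 48.9 and 50.6 FPKM in LY19WT, against 4.97, 8.13 and 5.15 FPKM in LY19Y646F. DCTD thus fell by 2.91 on the log2 scale (SE 0.19, limma adjusted p 0.00027), further than TYMS. RRM2B, a small subunit of ribonucleotide reductase, measured 8.41, 8.46 and 9.69 FPKM against 44.0, 51.4 and 50.2 FPKM and rose by 2.33 (limma adjusted p 9.3e-05). RRM2B stands at 41.4 FPKM in LY19WT and 282 FPKM in LY19Y646F in the authors' deposited table, 4.68- and 5.81-fold the library means. RRM2 measured 317 ± 25.0 and 361 ± 57.6 FPKM and DUT, which removes dUTP, 210.5 ± 4.25 and 175 ± 21.3 FPKM, and neither passed. The cytosolic folate list had 0 calls among 2 tested genes. For folate uptake and retention 1 of 4 tested genes was higher, FOLR2, a folate receptor, at 0.0361, 0 and 0.0479 FPKM in LY19WT, against 12.1, 9.77 and 8.80 FPKM in LY19Y646F (log2 difference 3.44, limma adjusted p 6.8e-05). FOLR2 is given as 0.0271 and 5.98 FPKM in the authors' deposited table. SDS, SDSL and SRR, which degrade or isomerise serine, were all below 0.5 FPKM on average.

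**Figure D4:**
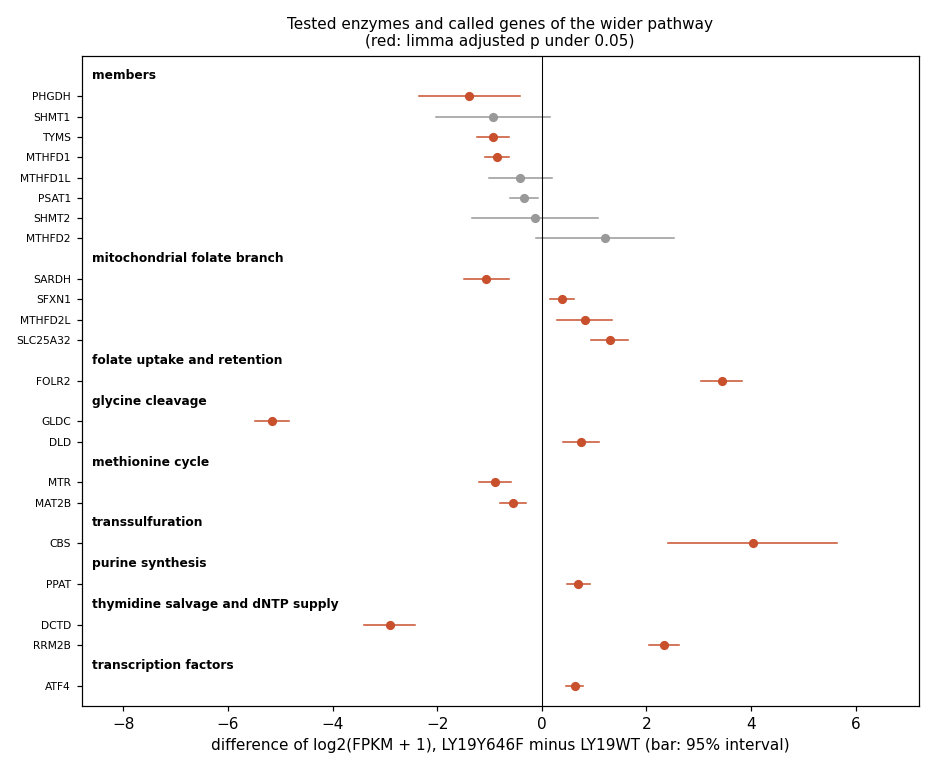
Difference of log2(FPKM + 1) between LY19Y646F and LY19WT for the 8 tested enzymes (headed members) and the 14 called genes of the wider pathway, with bars for limma's 95% interval and red for an adjusted p under 0.05. PHGDH, TYMS and MTHFD1 lie left of 0, GLDC reaches -5.16 and CBS 4.03 on this axis.

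Matched by exact name, the Cuffdiff comparison, the authors' deposited table with 1 mean per line, lists 8 of the 9 enzymes. MTHFD1 has no row there under its name alone, and rows naming several genes were not searched. For 7 of these 8 its log2 fold change is smaller than 1 in size, and PHGDH has -1.298 there. In that authors' deposited table MTHFD2 stands at 214 and 323 FPKM (log2 fold change 0.59), so its LY19WT value is 1.35-fold the mean of the library tables. TYMS is given there, in the authors' deposited table, as 395 and 223 FPKM (-0.83) and SHMT1 as 31.2 and 18.5 FPKM (-0.75). The TYMS row there spans 596988 to 712676 of hg19 chromosome 18, as does the ENOSF1 row, against 657604 to 673578 in the libraries. Spans of the other enzymes listed there also differ from those in the libraries, so the values need not cover the same bases. The authors' deposited table puts MTHFD1L at 113 and 110 FPKM (109.6), the latter 1.97-fold the library mean, with a log2 fold change of -0.05 in place of -0.41. All 8 have the same sign in both sources.

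By likeness of pattern, the root mean square difference of centred log2(FPKM + 1) over the 6 libraries and 10670 genes, the nearest gene to PHGDH was RPL29 (0.061), to TYMS ZNF423 (0.038) and to MTHFD1 AC018463.4 (0.027). RPL29 measured 1391, 876 and 761 FPKM in LY19WT, against 596, 329 and 266 FPKM in LY19Y646F, the same order of libraries as PHGDH. ZNF423 was near the floor, at 1.26, 0.658 and 1.14 FPKM in LY19WT, against 0.0514, 0.00431 and 0.00943 FPKM in LY19Y646F. Its fold change was thus far larger than that of TYMS, though its fall in FPKM was far smaller, and the log2(FPKM + 1) scale understates that fold change. The genes nearest to SHMT1 and SHMT2 were RPL10AP2 (0.098) and PI4KAP2 (0.059), and to PSAT1 EXD2 (0.041). For MTHFD2 the nearest gene was ALG10B (0.18), with LY19WT replicate 2 listed at 0. These distances describe the 6 libraries and carry no test.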

How the data were processed

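Polyadenylated RNA of 6 libraries, 3 per line, was sequenced with a strand-marking kit per the labels' protocols. STAR 2.5.3a, Cufflinks 2.2.1 and Cuffdiff 2.2.1 were used on hg19, per the submitters' processing notes. The authors deposited FPKM per assembled locus for each library, with a 95% interval per the file headers, and a Cuffdiff table with a mean FPKM and a log2 fold change per gene and no p-value. FPKM is already scaled to each library's total by the authors. Loci were assembled per library, so a gene can sit alone in one table and in a merged row in another.

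Rows were joined by symbol. A row counted for a gene that was its only protein-coding name (GENCODE 29, with RefSeq synonyms), or its only name. The 8987 symbols with another kind of row, or a failed one, in any library were left out. Symbols averaging 0.5 FPKM or more entered limma 3.58.1 (R 4.3.3; trend, two-sided, LY19Y646F minus LY19WT) on the log2(FPKM + 1) scale, a scale that understates changes of low genes. On simulated data with 10670 genes 27 of 100 2-fold changes were recovered and 57 of 100 at 4-fold. Changes of this size can thus be missed with 3 libraries per line, and of 95 calls 11 were false. Only 200 genes were changed in the simulation, whereas 33.3% of tested genes were called in the data. The recovered shares therefore need not hold for the data. Joins used pandas 2.3.3 under Python 3.11.15, exact permutation tests numpy 2.4.6 with scipy 1.17.1, and plots matplotlib 3.10.9. With depth unknown, the 3 libraries of each line set the precision.

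Same-numbered replicates deviated together from their line's means (Pearson's r 0.27, 0.11 and 0.13 across 10670 genes, which are not independent), so a fit with the replicate number as a block was run as an alternative. Between different numbers r ran from -0.18 to 0.0997, the highest being LY19WT replicate 3 with LY19Y646F replicate 2, so only replicate 1 stood clearly apart. The labels state no shared batch or day. Other alternatives were the pseudocount, filter, merged rows, scaling, library weights, gene set and libraries left out. The 9 genes and the pathway lists were chosen with earlier results of these data known. Named genes are the 9 enzymes, every called pathway gene, the 4 uncalled pathway genes with the highest levels, and the nearest genes by pattern. Some genes that this rule or the lists include are not reported here. Row positions were taken from the files (hg19) and count from 1.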

Additional observations from a re-analysis of the deposited data

How the results depend on the processing

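MTHFD1 and TYMS kept their direction and call under all 16 and 17 alternatives run, and PHGDH kept its direction under 17 and its call under 10. The count of enzymes called lower lay between 2 and 4 under the alternatives, and between 2 and 4 with 1 library left out. With library weights 1 enzyme, MTHFD2, was called higher, in place of 0. With 1 library left out the SHMT2 difference ranged from -0.57 to 0.18, and it changed sign without passing when LY19WT replicate 1 (0.17), LY19Y646F replicate 2 (0.01) or LY19Y646F replicate 3 (0.18) was left out. Pathway genes called lower numbered 5, but 10 with library weights and 9 without replicate 1 of both lines, an alternative chosen after the data were seen. Those 9 held the 5 and SFXN3, SLC46A1, DTYMK and MYC. With the replicate block the pairing by number called the same 3 enzymes lower (adjusted p 0.0029 for PHGDH, 0.0055 for MTHFD1 and 0.015 for TYMS) and 0 higher, and 8 pathway genes higher in place of 9. For SHMT2 over SHMT1 and MTHFD2 over MTHFD1 flipping signs over the 3 pairs gave an exact p of 0.25, which no result of this size can go below, and 0.50 for MTHFD1L over MTHFD1. Under the settings run these 3 log2 ratio differences kept their direction. Library weights called 5750 of all tested genes in place of 3549. Leaving out replicate 1 of both lines called 4559 of 10542 tested genes (43.2%), 2337 of them lower. Calls thus rose among genes at large under both settings. Unknown depth limits what can be said of genes listed near 0, and a library at 0 can reflect a merged locus.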
